A study of Mus musculus with 30 samples.

Results

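The genes described are the subunits of the proteasome and its activators, inhibitor and assembly chaperones, as read by 3′ mRNA-Seq in a mouse hypothalamic cell line. They were chosen by name, as the protein-coding genes whose symbol is Psma, Psmb, Psmc, Psmd, Psme, Psmf or Psmg followed by a number. The rule uses no measured value, although earlier results of these data were known when it was set. Of 56941 gene rows, 48 met the rule. They comprised 19 core members (8 Psma, 11 Psmb), 20 regulatory members (6 Psmc, 14 Psmd), 4 activators (Psme), 1 inhibitor (Psmf1) and 4 chaperones (Psmg). The mHypoA-2/12 cells, a single line made from adult mouse hypothalamic neurons with SV40 T-antigen, received vehicle or cannabidiol (CBD) at 0.325 µM, 0.75 µM, 1.5 µM or 3 µM for 6 h or 24 h. Vehicle was the culture medium with the DMSO in which CBD was dissolved, so all 10 groups held DMSO. Each group had 3 libraries. A1 to A3 were vehicle, A4 to A6 3 µM, A7 to A9 1.5 µM, A10 to A12 0.75 µM and A13 to A15 0.325 µM at 6 h. At 24 h, A16 to A18 were 3 µM, A19 to A21 1.5 µM, A22 to A24 0.75 µM, A25 to A27 0.325 µM and A28 to A30 vehicle. The labels do not state that the libraries of a group came from separate cultures, and p-values then measure only the spread between these libraries.

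The proteasome degrades proteins that carry ubiquitin chains. Its core particle is a barrel of alpha (Psma) and beta (Psmb) rings with the proteolytic sites on the inner face of the beta rings. The regulatory particle binds the barrel at its ends, where the Psmc ATPases unfold the substrate and some of the Psmd subunits recognise or remove ubiquitin. Activators of the Psme group open the barrel without ATP. In brain, the proteasome is studied for the turnover of synaptic and misfolded proteins, and Nfe2l1 is known to raise its subunit genes together when proteasome activity falls short.

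Reads on genes ranged from 1839621 in A1 to 4420675 in A25, and 0.770% to 0.908% of them fell on the 48 members. Levels are CPM, the read counts scaled to a common library total after trimmed-mean (TMM) normalization over the 30 libraries. QuantSeq gives about a single fragment per transcript end, and levels were therefore not divided by transcript length. Reads outside annotated genes made up 17.7% to 22.2% of a library. The line was checked against markers. Of 10 neuronal markers, 9 had reads and 4 reached a median of 1 CPM, with Tubb3 at a median of 50.6 CPM and Map2 at 24.9 CPM, while Snap25 had 4 reads in all and Slc32a1 none. The 6 mesenchymal markers (Col1a1, Col1a2, Col3a1, Vim, Pdgfrb, Acta2) summed to 7619 to 9880 CPM. The microglial list (4 of 4 with reads) summed to 14.6 to 54.5 CPM, and 2 of its genes, Cx3cr1 and Csf1r, reached a median of 1 CPM. The astrocyte list summed to 0.398 to 14.2 CPM, the oligodendrocyte list to 0 to 4.14 CPM and the endothelial list to 0 to 1.18 CPM. The neuronal markers at 1 CPM or more were Tubb3, Map2, Stmn2 and Syt1, far below the collagen genes.

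Promoter sequences are shown for 5 members on which the comparisons turn: Psma2, Psmc1, Psmd13 and Psme3, which differed at 3 µM after 24 h, and the catalytic subunit Psmb5. Each holds 250 bases before and 50 after the annotated start, 5′ to 3′ on the strand of the gene, from RefSeq on GRCm38.p6. Capitals mark matches, on either strand, to TGACNNNGC (the core of the antioxidant response element, bound by Nfe2l1 and Nfe2l2), CCAAT (bound by NF-Y), GGGCGG (bound by Sp1) and CCGGAAGT (bound by ETS factors), and no such match overlapped another in these 5.
Psma2 (plus strand, chr13:14612992-14613291): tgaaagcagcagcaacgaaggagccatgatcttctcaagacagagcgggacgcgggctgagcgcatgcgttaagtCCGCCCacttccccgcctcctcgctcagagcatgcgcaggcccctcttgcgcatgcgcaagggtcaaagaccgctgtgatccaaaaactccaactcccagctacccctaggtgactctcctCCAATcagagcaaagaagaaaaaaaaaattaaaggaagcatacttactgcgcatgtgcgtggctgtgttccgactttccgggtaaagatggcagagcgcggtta
Psmb5 (minus strand, chr14:54617946-54618245): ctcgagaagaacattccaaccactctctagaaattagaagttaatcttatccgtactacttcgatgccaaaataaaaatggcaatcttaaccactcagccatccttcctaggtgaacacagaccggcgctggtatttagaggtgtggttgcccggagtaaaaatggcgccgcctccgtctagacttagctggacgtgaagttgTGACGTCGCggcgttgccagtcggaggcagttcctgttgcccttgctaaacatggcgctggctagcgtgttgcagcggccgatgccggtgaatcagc
Psmc1 (plus strand, chr12:100109952-100110251): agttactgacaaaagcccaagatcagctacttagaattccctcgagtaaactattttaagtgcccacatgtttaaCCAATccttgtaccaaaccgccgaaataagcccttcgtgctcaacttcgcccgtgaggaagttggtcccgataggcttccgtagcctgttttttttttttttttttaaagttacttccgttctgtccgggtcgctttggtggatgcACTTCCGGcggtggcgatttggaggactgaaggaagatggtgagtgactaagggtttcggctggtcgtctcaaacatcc
Psmd13 (plus strand, chr7:140882144-140882443): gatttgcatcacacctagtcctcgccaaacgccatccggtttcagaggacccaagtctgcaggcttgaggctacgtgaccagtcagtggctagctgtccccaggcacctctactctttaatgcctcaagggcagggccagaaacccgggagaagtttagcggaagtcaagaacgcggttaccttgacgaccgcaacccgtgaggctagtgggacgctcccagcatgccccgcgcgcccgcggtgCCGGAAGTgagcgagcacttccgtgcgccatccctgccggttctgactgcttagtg
Psme3 (plus strand, chr11:101315963-101316262): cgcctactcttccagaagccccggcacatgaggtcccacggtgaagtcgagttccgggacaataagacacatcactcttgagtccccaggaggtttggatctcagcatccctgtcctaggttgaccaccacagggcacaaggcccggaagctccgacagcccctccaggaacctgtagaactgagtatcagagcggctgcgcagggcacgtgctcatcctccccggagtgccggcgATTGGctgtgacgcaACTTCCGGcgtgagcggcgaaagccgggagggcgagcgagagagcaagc
RefSeq had a promoter entry for 40 of the 48 members. TGACNNNGC stood in 6 of the 40 (15%) and in 12.5% of all 27025 promoters of this length. CCAAT stood in 14 (35%, against 37.9% of all promoters) and GGGCGG in 23 (57.5%, against 35.9%). CCGGAAGT stood in 8 (20%, against 4%), namely Psmc1, Psmc2, Psmd6, Psmd12, Psmd13, Psme3, Psme4 and Psmg3. These are counts of letters in a window and not of bound sites.

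Of the 48 members, 47 had reads. Psma8, an alpha subunit of testis, had 0 reads in 30 libraries, which allows a level of up to 0.0356 CPM over the series (a floor of 3 reads, for counting error only). Psmb11, the beta subunit of thymic cortex, had 25 reads in 7 libraries, at most 6 in any. Both failed the filter on low counts. Psmb7 had 258 reads in all and passed the filter at 6 h but not at 24 h, so that 46 members were tested at 6 h and 45 at 24 h. Being untested at 24 h, it is described by its levels there.

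The core genes spanned the widest range of levels. Psmb4, a structural beta subunit, was the highest member at 665 ± 80.5 CPM (SD, n = 30), followed by the alpha subunit Psma7 at 634 ± 47.5 CPM. Among regulatory genes, the lid subunits Psmd13 (563 ± 110 CPM) and Psmd7 (557 ± 61.8 CPM) and the ATPases Psmc3 (526 ± 67.2 CPM) and Psmc5 (421 ± 80.2 CPM) led. Each of these 6 differed from the next by less than the larger of the SDs of the pair, except Psmc3 from Psmc5. The activators ran from Psme3 (118 ± 35.5 CPM) and Psme2 (101 ± 32.9 CPM) to Psme1 (62.0 ± 8.85 CPM) and Psme4 (57.7 ± 10.9 CPM). The lowest tested members were the chaperone Psmg1 at 9.10 ± 3.87 CPM and Psmb7 at 3.19 ± 1.71 CPM.

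Levels of some members were read through partly shared sequence. Windows of 50 bases were taken from the last 500 bases of each member's longest protein-coding transcript. Of these, 69.2% in Psmb7 recurred in Nek6, the overlapping gene of the opposite strand. The share was 63.2% in Psmb3, 62.5% in Psma5, 56.8% in Psmd1, 55.2% in Psme2 (with Psme2b), 51.2% in Psmb5 (with the pseudogene Gm3375) and 31.5% in Psmd2. Reads that fit several genes or places were not counted, and the levels of these members are uncertain to that extent. Psmc3 (26.8%, with the antisense gene Slc39a13), Psmc1 (20.8%), Psme1 (17.5%) and Psma4 (10.4%) shared less, and the other members at most 9.98%. Ends of other transcripts were not examined. Several members also overlapped another annotated gene on their own strand, among them Psma2 (AW209491) and Psmd13 (Gm15542).

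**Figure D1:**
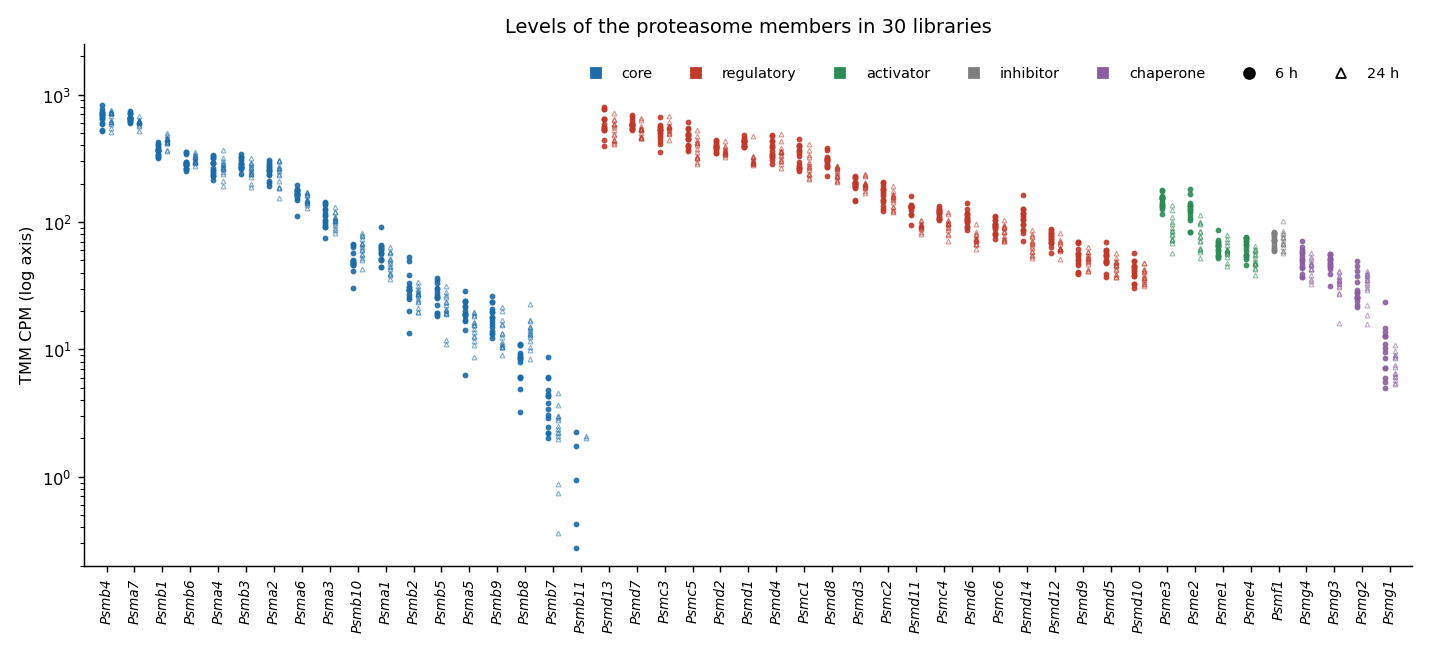
TMM CPM (log axis) of the 47 members with reads, 1 point per library, filled circles for 6 h and open triangles for 24 h, coloured by class. Libraries without reads are not drawn. Psmb4 and Psma7 lie highest at a mean of 665 and 634 CPM, Psmb7 lowest of the tested members at 3.19 CPM.

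The catalytic sites exist in a constitutive and an interferon-inducible form, Psmb6 and Psmb9 for the caspase-like, Psmb7 and Psmb10 for the trypsin-like and Psmb5 and Psmb8 for the chymotrypsin-like site. Psmb6 stood at 252 to 357 CPM in all libraries and Psmb9 at 9.05 to 26.4 CPM, so that Psmb9 made up 2.74% to 7.51% of the sum of the pair. Psmb5 stood at 11.1 to 36.0 CPM and Psmb8 at 3.20 to 22.6 CPM, and Psmb8 made up 12.5% to 67% of their sum. That share is uncertain, because reads were few (6 of Psmb8 in A2, 27 of Psmb5 in A18). Psmb5 also shares 51.2% of its end windows with a pseudogene. Psmb10 stood at 30.1 to 81.8 CPM against 0.364 to 8.75 CPM for Psmb7, with the reservation above on reads of Psmb7. With CBD at all doses, none of the 6 changed past the threshold. At 6 h the log2 fold changes lay between −0.20 (standard error 0.44) for Psmb7 and 0.17 (standard error 0.21) for Psmb5. At 24 h they lay between −0.34 (standard error 0.21) for Psmb8 and 0.44 (standard error 0.20) for Psmb5, with Psmb7 untested.

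To see whether CBD moved the proteasome genes at all, the mean of the 4 doses was set against vehicle at each time, and each dose separately. No member passed the threshold of an adjusted p below 0.1 (edgeR quasi-likelihood test, Benjamini-Hochberg over all genes tested) in any of these comparisons at either time. At 6 h, 0 of 46 members were called over all doses, where 0.749% of 12012 genes were, and the smallest adjusted p was 0.431. At 24 h, 0 of 45 were called, where 0.107% of 12118 genes were, and the smallest adjusted p was 0.651. DESeq2 also called 0 in each. For single doses against vehicle, 0 members were called in each by edgeR and by DESeq2. At 6 h, the share of all genes called was 0.2% (0.325 µM), 0.0749% (0.75 µM), 0.0999% (1.5 µM) and 0.05% (3 µM). At an unadjusted p below 0.05, in the same order of doses, stood 3 members (8.8% of all genes), 1 (7.79%), 3 (7.91%) and 1 (7.26%). At 24 h, the share of all genes called was 0.066%, 0.0825%, 0.0413% and 0.00825%, and 5 members (8.33% of all genes), 3 (7.63%), 5 (7.34%) and 7 (9.16%) had an unadjusted p below 0.05. In no member did all CBD libraries lie apart from those of vehicle, where 1.46% of all genes did so at 6 h and 0.611% at 24 h. The median standard error of a member was 0.13 (log2) at 6 h and 0.11 at 24 h over all doses, and 0.14 to 0.17 for a single dose.

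Over all doses at 6 h, 2 members had an unadjusted p below 0.05 (edgeR), where 10.3% of all genes did: Psme4 and Psmb4, both higher with CBD. Psme4, an activator of the nucleus, stood at 53.4, 51.2 and 55.5 CPM in vehicle at 6 h. With 0.325 µM it stood at 55.3, 45.8 and 70.4 CPM and with 0.75 µM at 75.6, 66.1 and 76.9 CPM. With 1.5 µM the levels were 75.2, 59.7 and 62.5 CPM, and with 3 µM 66.7, 71.6 and 74.7 CPM. All libraries of the 3 higher doses lay above those of vehicle, and those of 0.325 µM overlapped them. The log2 fold change over all doses was 0.31 (standard error 0.14, edgeR adjusted p = 0.431). At 24 h, Psme4 stood at 65.0, 49.7 and 46.8 CPM in vehicle and at 38.1 to 61.2 CPM with CBD (log2 fold change −0.10, standard error 0.13). The difference between the times in its response to CBD was −0.40 (standard error 0.19, edgeR adjusted p = 0.741).

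Psmb4 stood at 520, 525 and 703 CPM in vehicle at 6 h and at 588 to 826 CPM in the 12 CBD libraries. A1 and A2 lay below every CBD library, and A3 lay within their range. Its log2 fold change over all doses was 0.24 (standard error 0.11, edgeR adjusted p = 0.45). A3 decided this value: without it, Psmb4 (0.40, edgeR adjusted p = 0.0846) and the ubiquitin receptor Psmd4 (−0.40, edgeR adjusted p = 0.0996) passed the threshold. The other members that the rule of smallest p gave at 6 h did not pass it either. Psma1, an alpha subunit, stood at 50.6, 57.6 and 92.2 CPM in vehicle and at 43.9 to 65.7 CPM with CBD. Psma6 stood at 162, 183 and 197 CPM in vehicle and at 112 to 178 CPM with CBD. Their log2 fold changes were −0.26 (standard error 0.16) and −0.17 (standard error 0.12). The ATPases Psmc6 (105, 97.1 and 110.5 CPM in vehicle, 74.0 to 109 CPM with CBD) and Psmc4 (125, 129.7 and 127 CPM in vehicle, 104 to 133 CPM with CBD) had −0.21 (standard error 0.11) and −0.15 (standard error 0.10). Psmd10, a chaperone of the regulatory particle, stood at 30.6, 37.3 and 39.1 CPM in vehicle and at 32.4 to 56.8 CPM with CBD (0.25, standard error 0.17). The CBD libraries overlapped those of vehicle in each of these.

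At 24 h, 2 members lay under an unadjusted p of 0.05 over all doses (6.73% of all genes did), Psma2 and Psmb5, both higher with CBD. Psma2, an alpha subunit, stood at 237, 188 and 186 CPM in vehicle. With 0.325 µM it stood at 301, 277 and 235 CPM and with 0.75 µM at 268, 249 and 300.2 CPM. With 1.5 µM the levels were 305, 260.3 and 266 CPM, and with 3 µM 154, 212 and 184 CPM. Of the 9 libraries of the 3 lower doses, 8 lay above those of vehicle, A27 (235 CPM) lay just below A28 (237 CPM), and those of 3 µM lay among or below vehicle. The log2 fold change was 0.40 (standard error 0.13) at 0.325 µM, 0.40 (0.13) at 0.75 µM and 0.44 (0.13) at 1.5 µM, each with an edgeR adjusted p of 0.391 to 0.482. Psmb5 stood at 19.3, 18.9 and 11.1 CPM in vehicle and at 11.8 to 31.3 CPM with CBD (0.44, standard error 0.20, edgeR adjusted p = 0.727), so that the groups overlapped. The activator Psme2 stood at 62.2, 84.9 and 52.5 CPM in vehicle and at 57.9 to 113 CPM with CBD (0.26, standard error 0.16). The ATPase Psmc3 stood at 440.2, 559 and 522 CPM and at 491 to 676 CPM (0.12, standard error 0.09). Psmb4 stood at 679, 585 and 506 CPM in vehicle and at 545 to 753 CPM with CBD (0.19, standard error 0.09). Psmc1 had −0.17 (standard error 0.11) and Psmc5 0.17 (0.11). None of these 5 passed the threshold, and the groups overlapped.

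By class, the differences over all doses were small. At 6 h the median log2 fold change was −0.06 over 17 core members, −0.11 over 20 regulatory members and 0.19 over 4 activators, where the median of all genes was −0.02. At 24 h it was 0.09 over 16 core members, 0.02 over 20 regulatory members and −0.05 over 4 activators, where that of all genes was −0.01. The summed level of the core was 3189 ± 249 CPM (SD, n = 3) in vehicle and 3246 ± 63.7 CPM at 3 µM after 6 h. After 24 h it was 2989 ± 154 CPM in vehicle and 3107 ± 44.5 CPM with 3 µM, against 3339.8 ± 71.4 CPM with 0.325 µM, 3365 ± 103 CPM with 0.75 µM and 3396 ± 100.5 CPM with 1.5 µM. The libraries of the 3 lower doses (3252 to 3488 CPM) all lay above those of vehicle (2829 to 3136 CPM) and of 3 µM (3058 to 3145 CPM). Abundant genes such as Psmb4 weigh most in such a sum, and the sums were not tested. No core member was called against vehicle at any dose. In these bulk libraries, fewer cells of a kind and less RNA per cell cannot be told apart.

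**Figure D2:**
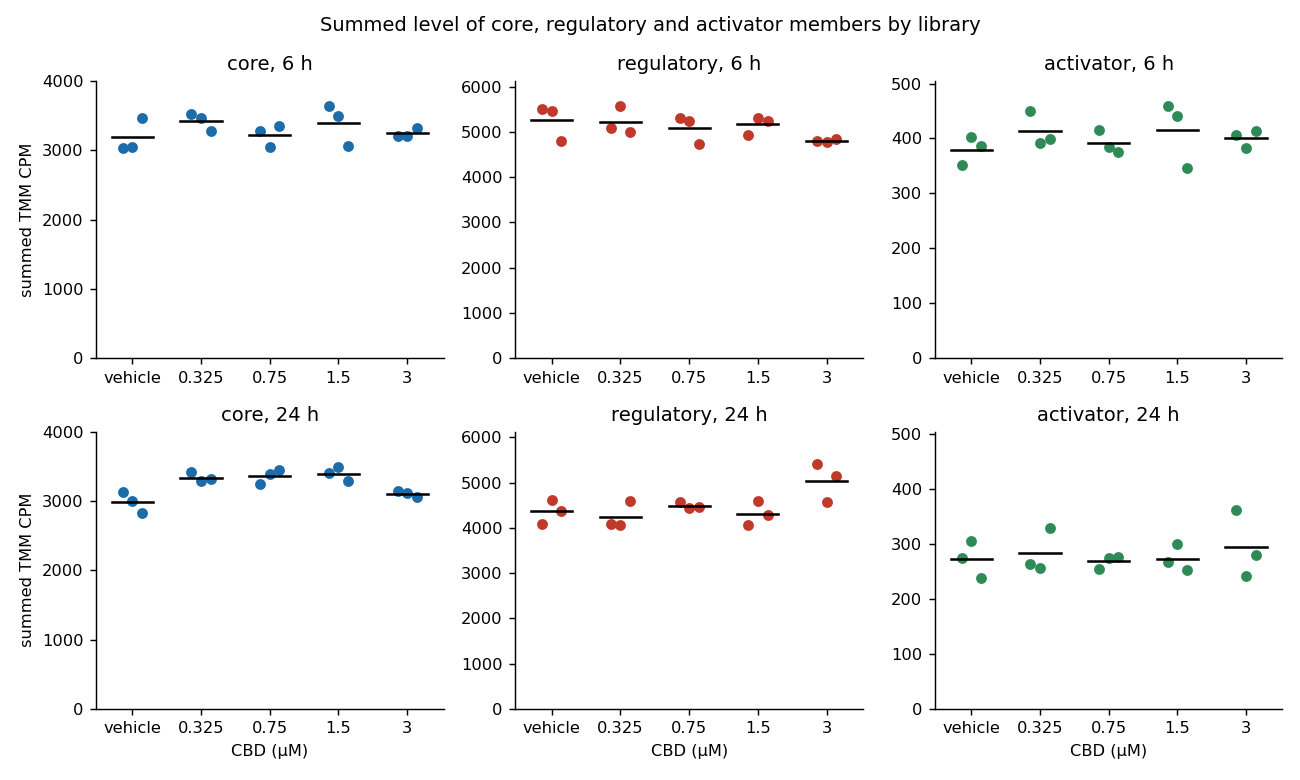
Summed TMM CPM of core, regulatory and activator members against the CBD dose (µM), at 6 h above and 24 h below, 1 point per library with the mean of 3 as a bar. At 24 h the core sum was 2989 CPM in vehicle and 3107 CPM at 3 µM, below the 3 lower doses (3339.8 to 3396 CPM). The mean regulatory sum was 5043 CPM at 3 µM against 4252 to 4492 CPM at the other doses. By library it was 5412, 4577 and 5140 CPM at 3 µM. The lower doses reached 4594 CPM and vehicle 4621 CPM, so that the groups overlapped.

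The doses were then compared with each other. At 6 h, no member differed among the 4 doses by edgeR or by DESeq2 (0 of 46, and 0% of all genes), with 1 member, Psmc5, at an unadjusted p below 0.05 (3.76% of all genes). At 24 h, 3 of 45 members differed among the doses (1.93% of all genes), Psma2 (edgeR adjusted p = 0.0574), Psmc1 (0.0836) and Psmd4 (0.0918). DESeq2 called 8. None of the 45 was called without A16, A18, A19, A22, A25 or A26, and 9 without A17.

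At 3 µM for 24 h, against the mean of the 3 lower doses, 9 of 45 members passed the threshold, or 20%, where 10.5% of all genes did. This contrast was chosen with earlier results of these data known, in which 3 µM stood apart at 24 h. Its p-values do not account for that choice. Higher at 3 µM were 6 (6.36% of all genes were called higher): the ATPases Psmc1 and Psmc5, the ubiquitin receptor Psmd4, the lid subunits Psmd7 and Psmd13, and the activator Psme3. Lower were 3 (4.16% of all genes): the alpha subunit Psma2, the ATPase Psmc2 and the chaperone Psmg2. Of 16 core members none was called higher and 1 lower, of 20 regulatory members 5 higher and 1 lower. The median log2 fold change was −0.06 for core, 0.15 for regulatory and −0.05 for activator members, and 0.01 for all genes.

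Psma2 had the smallest p of the 45. Its levels at 3 µM, 154, 212 and 184 CPM, lay below all 9 of the lower doses (235 to 305 CPM). The log2 fold change was −0.56 (standard error 0.11, edgeR adjusted p = 0.00644), or 0.678 times the level of the lower doses. No other alpha subunit was called, and Psma4, the next by p, stood at 367, 261 and 320.5 CPM against 210.0 to 299 CPM (0.29, standard error 0.11, edgeR adjusted p = 0.135). Among beta subunits, Psmb4 had −0.24 (standard error 0.10), with 613, 614 and 545 CPM at 3 µM and 611 to 753 CPM at the lower doses, and Psmb5 −0.37 (standard error 0.22).

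The 6 ATPases form a single ring in equal number, and their genes did not move together. Psmc1 stood at 368, 283 and 411 CPM at 3 µM, against 219 to 295 CPM at the lower doses. A16 and A18 lay above all of these and A17 lay within their range. The log2 fold change was 0.52 (standard error 0.11, edgeR adjusted p = 0.0108). Psmc5 stood at 530.0, 423 and 473 CPM against 296 to 442 CPM, again with A17 alone inside the range of the lower doses, and had 0.42 (standard error 0.11, edgeR adjusted p = 0.0272). Psmc2 went the other way, from 144 to 192 CPM at the lower doses to 121, 132 and 124 CPM at 3 µM, with no overlap (−0.34, standard error 0.11, edgeR adjusted p = 0.0505). Psmc4 (0.29, standard error 0.12), Psmc3 (0.22, 0.09) and Psmc6 (−0.19, 0.11) were not called.

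Of the 14 Psmd genes, 3 were called and all of these were higher. Psmd4, which binds ubiquitin chains, stood at 431, 355 and 491 CPM at 3 µM and at 266 to 362 CPM at the lower doses, with A17 inside their range (0.43, standard error 0.10, edgeR adjusted p = 0.0167). Psmd13, a lid subunit, stood at 641, 590.0 and 716 CPM against 411 to 588 CPM. The groups did not overlap, although 590.0 CPM in A17 and 588 CPM in A27 lay side by side (0.42, standard error 0.12, edgeR adjusted p = 0.0329). Psmd7, the lid partner of the deubiquitinase Psmd14, stood at 638, 535 and 658 CPM against 454 to 546 CPM, with A17 inside that range (0.31, standard error 0.09, edgeR adjusted p = 0.0456). Psmd14 itself did not pass, at 77.2, 59.6 and 58.3 CPM against 51.9 to 85.8 CPM. Psmd1, a scaffold of the base, stood at 476 CPM in A16 and at 289.6 and 313 CPM in A17 and A18 (0.28, standard error 0.11, edgeR adjusted p = 0.134), within the limits of its shared sequence.

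Among activators, Psme3, which acts in the nucleus, stood at 135, 89.8 and 124 CPM at 3 µM and at 56.9 to 100.1 CPM at the lower doses. A16 and A18 lay above that range and A17 inside it. The log2 fold change was 0.58 (standard error 0.15, edgeR adjusted p = 0.0224), or 1.50 times. Psme1 stood at 78.4, 45.3 and 60.5 CPM against 47.3 to 69.7 CPM, and Psme2 at 99.9, 60.01 and 57.9 CPM against 61.7 to 113 CPM. Neither passed (0.06, standard error 0.15, and −0.16, standard error 0.17), nor did Psme4 (−0.23, standard error 0.14). The chaperone Psmg2, which pairs with Psmg1 to assemble the alpha ring, fell from 31.9 to 40.9 CPM at the lower doses to 18.6, 29.4 and 15.8 CPM at 3 µM, with no overlap (−0.78, standard error 0.18, edgeR adjusted p = 0.0154). Of all 45 members, 4 had groups that did not overlap (Psmd13 higher, Psma2, Psmc2 and Psmg2 lower), where 4.6% of all genes did so.

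**Figure D3:**
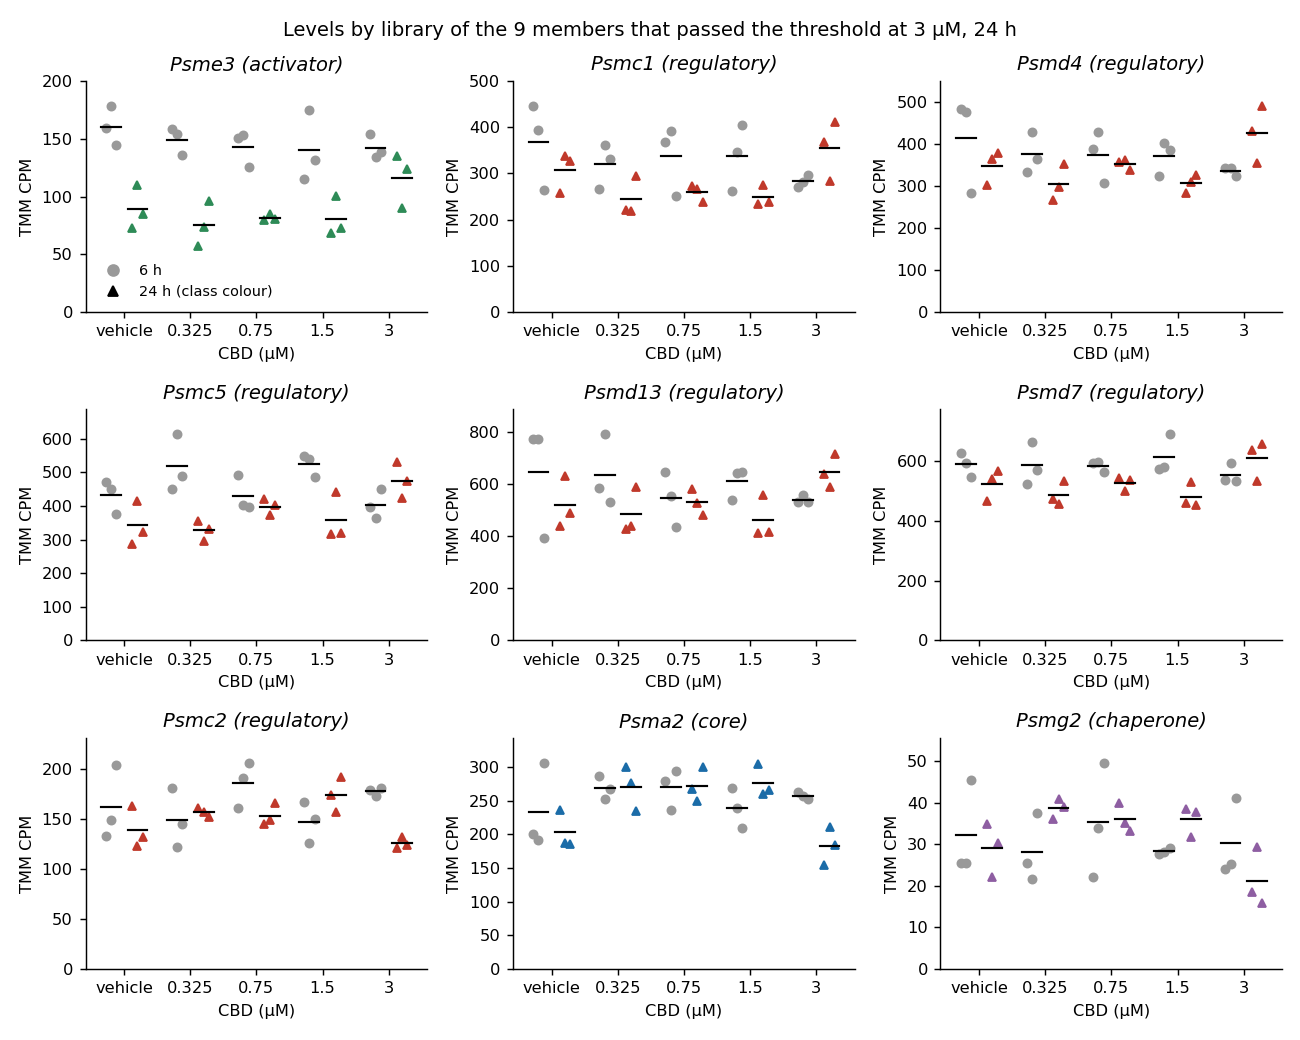
TMM CPM by CBD dose (µM) of the 9 members that passed the threshold for 3 µM against the lower doses at 24 h, grey circles for 6 h and coloured triangles for 24 h, 1 point per library with the mean of 3 as a bar. Psma2 stood at 154 to 212 CPM at 3 µM and 235 to 305 CPM at the lower doses of 24 h, and Psmc1 at 283 to 411 CPM and 219 to 295 CPM.

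In all of these called genes except Psmc5, vehicle at 24 h overlapped 3 µM. Psmc1 stood at 258, 338 and 326 CPM in vehicle, Psmd4 at 304, 364 and 378 CPM, Psmd13 at 442, 633 and 488 CPM, Psmc2 at 163, 123 and 132 CPM and Psmg2 at 34.9, 22.2 and 30.3 CPM, each overlapping the libraries of 3 µM. Overlap was also seen in Psmd7 (468, 542 and 567 CPM in vehicle) and Psme3 (72.7, 109.7 and 85.2 CPM). Psma2, at 237, 188 and 186 CPM in vehicle, overlapped too. Psmc5, at 287, 415 and 324 CPM in vehicle, did not. At 3 µM against vehicle, 0 were called and 7 had an unadjusted p below 0.05, led by Psmc5 (0.49, standard error 0.14, edgeR adjusted p = 0.411). Both comparisons share the libraries of 3 µM.

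The share of reads outside genes differed between the same groups. At 24 h it was 20.8% to 21.7% at 3 µM and 20.9% to 22.2% in vehicle, against 18.7% to 20.4% at the lower doses, with no overlap. Within 3 µM the share was 20.8% in A16, 21.7% in A17 and 21.6% in A18. A17 was the library inside the range of the lower doses for several called genes. With that percentage entered as a covariate, 0 of the 45 members were called (6 at an unadjusted p below 0.05), and 30 of all genes. The medians then were 0.12 for core, 0.29 for regulatory and 0.42 for activator members, against −0.06, 0.15 and −0.05 without it. Because 3 µM and the lower doses did not overlap in the percentage, this fit cannot tell the dose and the percentage apart. The calls also turned on single libraries. Without A16 none was called and without A18 only Psma2, while 13 were called without A17. A16 resembled the libraries of 6 h in some respects. It had 0.338 alignments to several places per read on genes. The other libraries of 24 h had at most 0.307 and those of 6 h had 0.310 to 0.359. Of its reads on genes, 0.894% fell on the members. That share was at most 0.857% in the other libraries of 24 h and 0.852% to 0.908% at 6 h. The part of this in the calls was not tested. DESeq2 called 10. The microglial list summed to 23.5 to 33.3 CPM at 3 µM and 14.6 to 29.4 CPM at the lower doses, and the mesenchymal list to 7619 to 7997 CPM and 7773 to 8752 CPM. The part of cell markers in these differences was not tested.

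The ratio of regulatory to core reads varied with this percentage at 6 h, where no member was called. The summed regulatory level per 1 CPM of core was 1.82, 1.79 and 1.38 in A1, A2 and A3, with 21.4%, 20.8% and 17.9% of reads outside genes. Over the 15 libraries of 6 h, the ratio was 1.61 to 1.82 in the 6 with more than 20% of reads outside genes and 1.36 to 1.53 in the other 9. At 24 h it was 1.72, 1.47 and 1.68 at 3 µM, 1.31, 1.54 and 1.55 in vehicle, and 1.19 to 1.41 at the lower doses, among which A19 had 20.4% of reads outside genes and the lowest ratio. The cut at 20% was chosen after the values were seen.

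**Figure D4:**
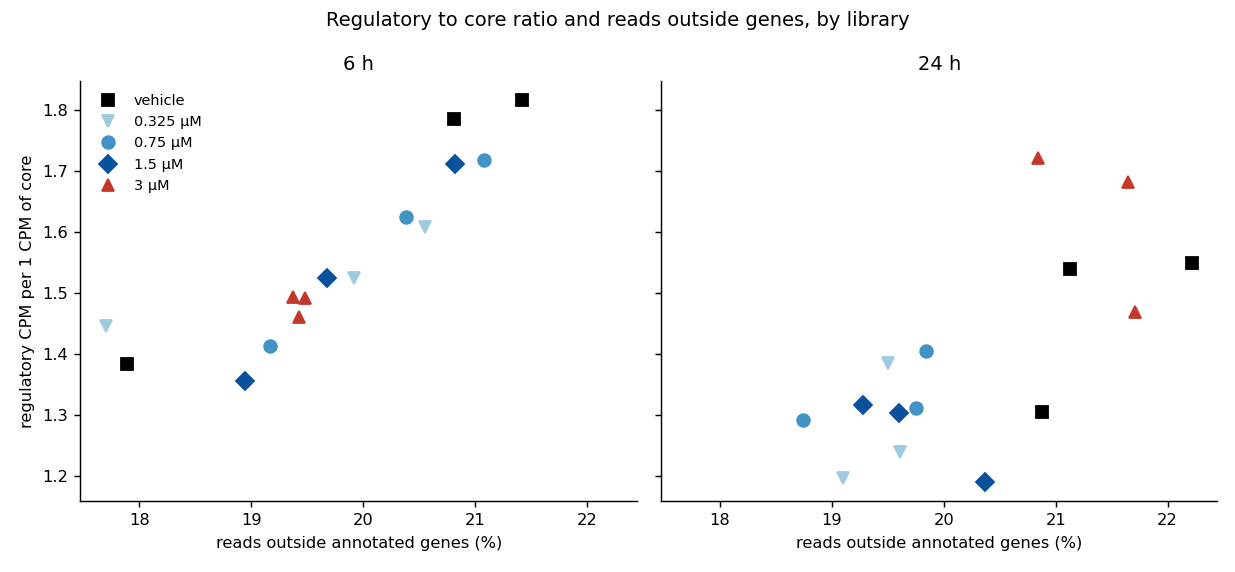
Summed regulatory CPM per 1 CPM of core against the percentage of reads outside annotated genes, 1 point per library, 6 h left and 24 h right, marked by dose. At 6 h the 6 libraries above 20% have ratios of 1.61 to 1.82 and the 9 others 1.36 to 1.53, with the vehicle libraries at 1.38, 1.79 and 1.82.

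The effect of 3 µM against the lower doses was compared between the times. At 6 h, 0 of 46 members were called by edgeR and by DESeq2 (0% of all genes), and 3 had an unadjusted p below 0.05 (5.19% of all genes did), all lower at 3 µM: Psmc3 (−0.30, standard error 0.12), Psmc5 (−0.27, 0.12) and Psma4 (−0.27, 0.13). In none of the 46 were the groups apart, where 1.52% of all genes were. The difference between 24 h and 6 h was called for 4 of 46 members (2.39% of all genes). It was higher at 24 h (1.28% of all genes) for the ATPases Psmc5 (0.67, standard error 0.17, edgeR adjusted p = 0.0647), Psmc1 (0.72, 0.20, 0.0845) and Psmc3 (0.50, 0.15, 0.0979), and lower (1.11%) for Psma2 (−0.57, 0.17, 0.0979). At 6 h, Psmc5 stood at 397, 364 and 451 CPM at 3 µM and at 397 to 614 CPM at the lower doses, the reverse order of 24 h with overlap. Psma2 stood at 263, 257 and 253 CPM against 209 to 294 CPM. DESeq2 called 8. The count was 0 with the percentage of reads outside genes as a covariate, and ran from 0 to 10 when a library was left out, with 0 called without A4, A5, A6, A10, A16, A18, A19, A24 or A26, and 10 without A17. The difference between the times in the response to CBD at all doses was called for 0 of 46 (0.235% of all genes), also by DESeq2, with 2 at an unadjusted p below 0.05 (6.52% of all genes).

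**Figure D5:**
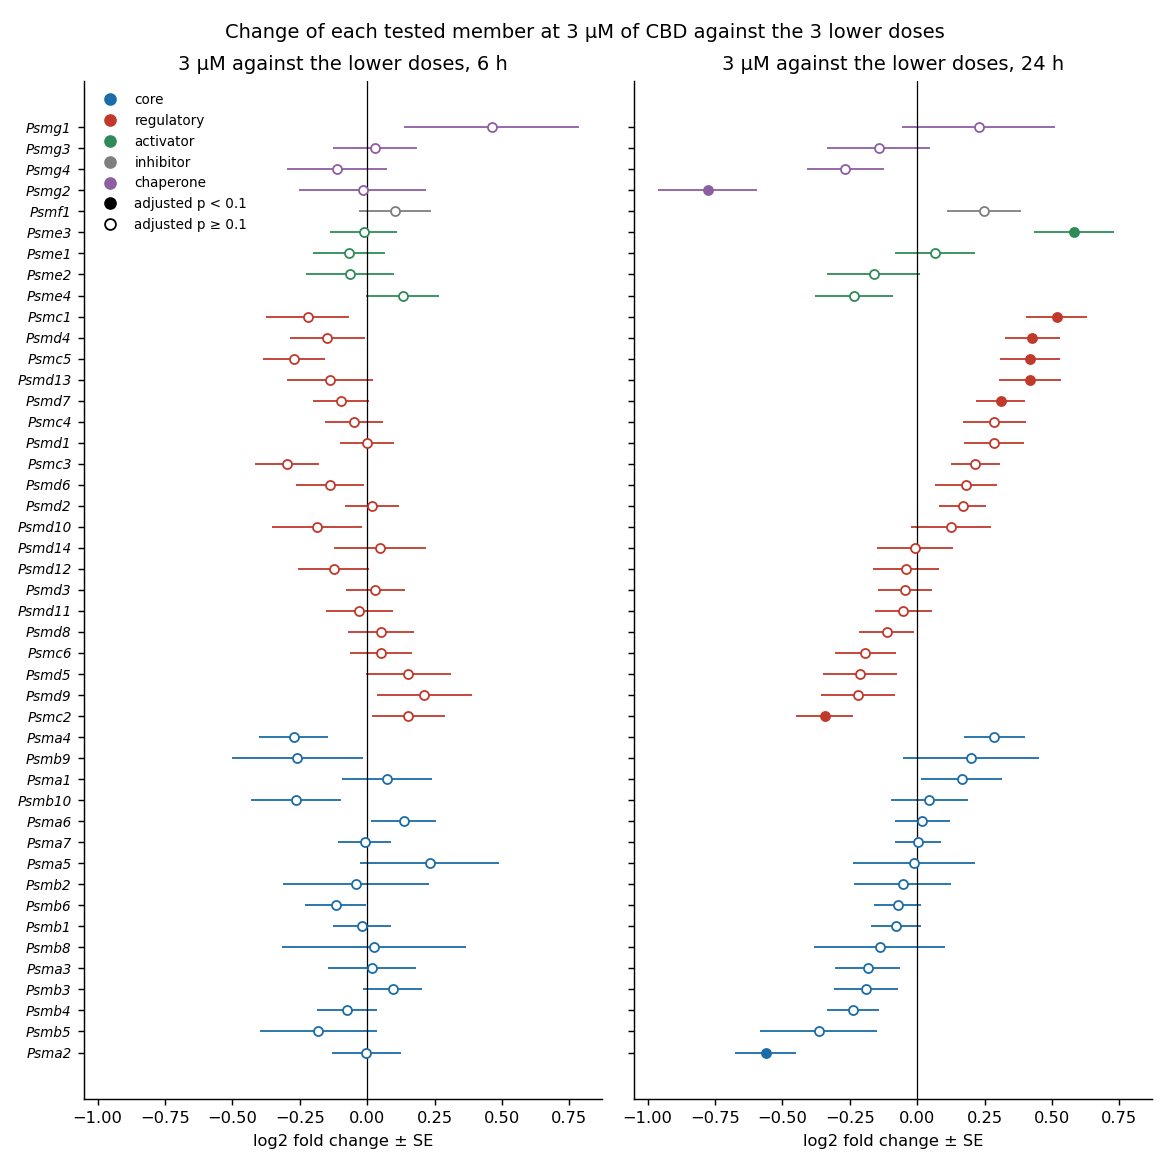
Log2 fold change with its standard error at 3 µM of CBD against the mean of the 3 lower doses, 6 h left and 24 h right, for the 45 members tested at both times, grouped by class and filled where the adjusted p was below 0.1. At 24 h 9 members are filled, from Psmg2 at −0.78 to Psme3 at 0.58, and at 6 h none.

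Between the vehicle groups of the 2 times, nearly all members that were called stood lower at 24 h. At 24 h, 14 of 46 members were called lower than at 6 h (14.2% of all genes were) and 1 higher (12.5%), together 15 (26.7%). The lower ones were 8 of 20 regulatory members, 2 of 17 core members, 2 of 4 activators and 2 of 4 chaperones. The median log2 fold change was −0.30 for regulatory, −0.20 for core and −0.34 for activator members, and −0.03 for all genes. Time of exposure and the culture harvested at that time cannot be told apart here. Marker lists were compared between the same groups. The neuronal list summed to 73.1 to 90.6 CPM at 6 h and 94.2 to 109 CPM at 24 h, with no overlap, and the astrocyte list to 0.833 to 5.56 CPM and 4.97 to 9.32 CPM. The microglial list summed to 23 to 54.5 CPM and 21.2 to 25.6 CPM, and the mesenchymal list to 8474 to 8949 CPM and 7911 to 8772 CPM. The oligodendrocyte and endothelial lists stayed at or below 2.78 CPM. Their part in the differences was not tested.

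Psmd6, a lid subunit, stood at 126, 106 and 118 CPM at 6 h and at 74.1, 73.6 and 70.7 CPM at 24 h (−0.68, standard error 0.14, edgeR adjusted p = 0.000766). Psme3 stood at 159, 179 and 144 CPM and at 72.7, 109.7 and 85.2 CPM (−0.85, standard error 0.18, edgeR adjusted p = 0.000768). Psmd11, also of the lid, stood at 132, 114 and 160.5 CPM and at 95.3, 92.8 and 88.9 CPM (−0.56, standard error 0.13, edgeR adjusted p = 0.0029). In these 3 genes the groups did not overlap. With CBD, Psmd6 and Psmd11 also ran lower at 24 h, with overlap: Psmd6 stood at 86.6 to 140.0 CPM in the 12 CBD libraries of 6 h and at 61.8 to 96.6 CPM in those of 24 h, and Psmd11 at 95.4 to 137 CPM and 80.6 to 104 CPM. For Psmd6 the overlap came from A16 alone (96.6 CPM), the next highest being A20 at 84.0 CPM.

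The deubiquitinase Psmd14 stood at 86.7, 94.4 and 164 CPM at 6 h and at 69.9, 67.6 and 70.7 CPM at 24 h (−0.75, standard error 0.20, edgeR adjusted p = 0.00604). A3 held the highest value, and without it the call was lost (−0.37, edgeR adjusted p = 0.215), as it was with the percentage of reads outside genes as a covariate. Psmd1 went from 393, 429.5 and 446 CPM to 288, 325 and 301 CPM (−0.47, standard error 0.13, edgeR adjusted p = 0.00897) and Psmc4 from 125, 129.7 and 127 CPM to 80.4, 98.8 and 101 CPM (−0.45, standard error 0.13, edgeR adjusted p = 0.0134). Neither overlapped between the times. The call for Psmc4 was lost without A28 and with no filter on low counts. The calls for Psmd1, Psmd6, Psmd11 and Psme3 held in all 35 alternatives run. Also called lower were Psmc6, Psmd8, Psme2, Psma1, Psmg1, Psma6, Psmg3 and Psmc5, with less stable calls. The call for Psmc5 (−0.34) was lost in 28 of 35 alternatives, that for Psmg3 in 14, that for Psma6 in 10 and that for Psmc6 in 1. Psmg1, a chaperone of the alpha ring, stood at 5, 8.54 and 23.6 CPM at 6 h and at 6.06, 8.62 and 5.39 CPM at 24 h. A3 carried its value of −0.98, which was −0.013 without that library. The calls for Psma1 (−0.24 without A3), Psme2 and Psmd8 were also lost without A3 and with reads outside genes as a covariate, and those for Psme2 and Psmd8 also without A30.

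Psmb8, the inducible chymotrypsin-like subunit, was the exception. It stood at 8.34, 3.20 and 11.1 CPM in vehicle at 6 h and at 13.3, 13.9 and 22.6 CPM at 24 h, with no overlap (1.05, standard error 0.34, edgeR adjusted p = 0.0251). In the CBD libraries it stood at 4.90 to 10.9 CPM at 6 h and at 8.33 to 17 CPM at 24 h, with overlap. For the vehicle difference, the call was lost without A2 and without A30. Its constitutive counterpart Psmb5 had −0.53 (standard error 0.27, edgeR adjusted p = 0.167), and Psmb9 (−0.35, 0.30) and Psmb10 (0.14, 0.19) were not called. In all, groups did not overlap for 15 of 46 members, 14 lower and 1 higher, where 31.8% of all genes did so, and these were in part other members than those called. The total of 15 calls ranged from 8 to 15 when a library was left out, with 8 without A30.

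Genes that work with the proteasome were counted by lists, to be read against the shares of all genes: 0.749% and 0.107% called with CBD at all doses at 6 h and 24 h, 10.5% at 3 µM against the lower doses at 24 h, and 26.7% between the vehicle groups. Of 13 partners of the particle (such as the chaperone Pomp and the deubiquitinase Usp14), 12 were tested. With CBD at all doses 0 were called at either time, with 1 at an unadjusted p below 0.05 at 6 h and 3 at 24 h. At 3 µM against the lower doses at 24 h, 2 of 12 were called. Ecpas, which tethers proteasomes, was higher (0.48, standard error 0.13, edgeR adjusted p = 0.0251) and Sem1, the smallest subunit of the lid, was lower (−0.56, standard error 0.19, edgeR adjusted p = 0.0728). Between the vehicle groups 3 of 12 were called at 24 h, Ipo9, which imports proteasomes into the nucleus, higher (0.37, standard error 0.14), and Zfand5 (−0.38, 0.15) and Zfand2a (−0.94, 0.31) lower.

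Of 5 ubiquitin genes 4 were tested and 0 were called in these comparisons, with 1 at an unadjusted p below 0.05 at 6 h. Of 9 shuttle and extraction genes, all tested, 0 were called in the comparisons with CBD, with 1 at an unadjusted p below 0.05 at 6 h for all doses. Between the vehicle groups 2 of 9 were lower at 24 h, Npepps (−0.67, standard error 0.14) and Rad23b (−0.43, 0.11). Of 7 genes of transcriptional control 6 were tested. Nfe2l1 was not called in any of these comparisons. Maff, a small partner of the Nfe2l factors, was the 1 of 6 called at 3 µM against the lower doses at 24 h, where it was higher (0.55, standard error 0.14, edgeR adjusted p = 0.0248), and the 1 of 6 called between the vehicle groups, lower at 24 h (−0.85, standard error 0.18, edgeR adjusted p = 0.000819).

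Of the 5 lists, only the 15 antigen processing and interferon genes held calls with CBD at all doses. At 6 h, 2 of 15 were lower and 0 higher, where 61 of all 12012 genes were called lower and 29 higher. Isg15, an interferon-induced modifier related to ubiquitin, stood at 17.4 ± 4.84 CPM (SD, n = 3) in vehicle and 6.85 ± 3.26 CPM (SD, n = 12) with CBD (−1.43, standard error 0.28, edgeR adjusted p = 0.0161). Ifit1 stood at 14.3 ± 3.5 CPM and 6.82 ± 3.78 CPM (−1.21, standard error 0.30, edgeR adjusted p = 0.0799). At 24 h none of the 15 was called, with 2 at an unadjusted p below 0.05. At 3 µM against the lower doses at 24 h, 2 of 15 were called, where 10.5% of all genes were. Irf1 (−0.75, standard error 0.17, edgeR adjusted p = 0.0113) and H2-D1 (−0.39, 0.14, 0.0884) were lower, Irf1 at 50.3 ± 20 CPM (SD, n = 3) against 85.5 ± 9.37 CPM (SD, n = 9). Between the vehicle groups 5 of 15 were called, where 26.7% of all genes were. Among them, Tapbp was higher at 24 h (0.63, standard error 0.16), and Isg15 (−1.46, 0.36), Bst2 (−1.02, 0.35) and H2-D1 (−0.67, 0.20) were lower.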

How the data were processed

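The data are 30 libraries of QuantSeq 3′ mRNA-Seq of mHypoA-2/12 cells, grouped by the labels. According to the methods of the study, the authors trimmed reads with Flexbar, mapped them with STAR (2.7.5c, from the submitters' processing notes) to GRCm39 and counted them per Ensembl gene with HTSeq (1.99.2). The deposited values are raw read counts, 1 table per library. The strand setting of the counting is not given in the sources used here. The summary lines that name no gene were left out of library sizes, and reads outside genes made up 17.7% to 22.2% of uniquely placed reads. Reads fitting several genes or places were not counted by the authors, which lowers the levels of members with close copies.

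Symbols, positions and transcript ends came from GENCODE M21 and promoters from RefSeq, both on GRCm38, whereas the counts were made on GRCm39. Counts were fitted in R 4.3.3 with edgeR 4.0.16: 15 libraries per time with a mean per group, all 30 for comparisons between the times, filterByExpr, TMM and the quasi-likelihood F-test. Each contrast had its own Benjamini-Hochberg adjustment across the whole table, and an adjusted p below 0.1 was a call. Genes tested were 12012 at 6 h, 12118 at 24 h and 12790 over both. The scripts were tested on simulated data.

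The members, the lists of related genes and the contrast of 3 µM against the lower doses were chosen with earlier results of these data known. By rule, values by library are given for called members (up to 6 per contrast by smallest p), the 3 core, 3 regulatory and 1 activator members with the smallest p at each time, the catalytic pairs and the activators, and read totals for members that failed the filter. Values by library of other members were chosen after they were seen. Alternatives were RLE normalization, DESeq2 1.42.0, no filter, at least 10 counts in every library, the percentage of reads outside genes as a covariate, only the 2 groups compared, members above 50 CPM for the class medians, and each library left out. The difference between the times in the effect of 3 µM was added after seeing the data. Floors cover counting error only.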

Additional observations from a re-analysis of the deposited data

Results flagged for a closer look

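The change at 3 µM against the lower doses differed between 24 h and 6 h, by the test of that difference, for 4 members. It was higher at 24 h by 0.72 (log2) for Psmc1, by 0.67 for Psmc5 and by 0.50 for Psmc3, and for Psma2 it was −0.57. This comparison was added after the data were seen.

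Reads also lay on 2 rows with a proteasome symbol that the rule left out. Psmb6-ps2, a pseudogene of Psmb6, had 557 reads over the 30 libraries, and Psme2b, a protein-coding copy of Psme2, had 568.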

How the results depend on the processing

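No paired analysis was possible because the labels number the libraries A1 to A30 in a single run and give the groups no shared replicate numbers. The absence of calls for CBD against vehicle, single doses included, held under every alternative with 5 exceptions. At 6 h, leaving out a library gave 0 to 2 calls for all doses and 0 to 1 for 0.325 µM, each time from leaving out A3, and reads outside genes taken as a covariate gave 1 for 0.325 µM (Psmc3). For 3 µM at 24 h, no filter gave 1 (Psmc5) and leaving out a library gave 0 to 2 (2 without A17). For any difference among the doses at 24 h, DESeq2 gave 8, no filter 7, the covariate 0 and leaving out a library 0 to 9. For 3 µM against the lower doses at 24 h, the covariate gave 0 and leaving out a library 0 to 13. For its difference between the times, DESeq2 gave 8, the covariate 0 and leaving out a library 0 to 10. For vehicle at 24 h against 6 h, no filter gave 9 and leaving out a library 8 to 15. With the covariate, the activator median was −0.26 for CBD at all doses at 24 h, and at 3 µM against the lower doses the medians were 0.12 (core), 0.29 (regulatory) and 0.42 (activator). The regulatory median of that contrast was 0.017 to 0.21 with a library left out, lowest without A16. No named gene reversed its direction among those called, and of the values of single genes under alternatives 706 kept their side of the threshold and 197 called values lost it. The causes were not tested. With 3 libraries a group, the median standard error of a member was 0.11 to 0.17 for CBD against vehicle. Changes well above that also went uncalled, such as Psmc5 at 3 µM after 24 h (0.49, edgeR adjusted p = 0.411). The absence of calls therefore does not exclude changes of that size in single members.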
